A study of Mus musculus with 12 samples.

Results

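Binding of the transcription factor FOXP3 and of the DNA repair protein Ku70 was examined at 8 genes of interleukin-2 (IL-2) receptor signalling, out of 21938 protein-coding genes on the assembled chromosomes. The genes were the ligand Il2, the receptor chains Il2ra, Il2rb and Il2rg, the kinases Jak1 and Jak3, and the transcription factors Stat5a and Stat5b. The list of genes was chosen with earlier results of these data known. A chromatin immunoprecipitation sequencing (ChIP-Seq) region was assigned to a gene by its summit, the position of highest enrichment. The summit had to lie in the gene or within 50 kb of it. Of the 9381 regions in the series, 7 were assigned in this way.

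The 12 samples formed 4 sets of 3, an input beside 2 immunoprecipitated replicates. The FOXP3 sets were from regulatory T cells (Tregs), either wild type (WT) or Xrcc6 knockout (KO), which lack Ku70, the protein that Xrcc6 encodes. The Ku70 sets were from wild-type Tregs and from wild-type conventional T (Tconv) cells. By the study's methods, WT mice carried a Foxp3 allele that drives YFP and Cre, and the KO mice carried loxP-flanked Xrcc6 in addition, so that deletion was limited to cells that express Foxp3. Tregs were sorted as CD4+CD25+YFP+ and Tconv cells as CD4+CD25-YFP-, and ages were not given for these samples. CD25 is the product of Il2ra, so 1 of the 8 genes encodes a marker of the sort.

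IL-2 is secreted mainly by activated Tconv cells and is taken up by Tregs, which repress Il2 themselves and depend on the cytokine for survival. CD25 (Il2ra) raises the affinity of the receptor, whereas CD122 (Il2rb) and the common gamma chain (Il2rg) carry the signal through JAK1 and JAK3 to STAT5A and STAT5B. Activated STAT5 in turn binds enhancers of Il2ra, which lie upstream of the gene and within its introns, and promotes expression of Foxp3. FOXP3 is known to activate Il2ra and to repress Il2.

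The sequences at 6 of the 7 summits are shown, and their repeat or coding content is described with each gene below. Each run is 201 bases of the plus strand of GRCm38 (mm10) centred on the summit. Capitals mark the central 31 bases, whose copies in the genome were counted, and lower case does not mark repeats.
Il2ra intron 1, first Treg Ku70 region, chr2:11645677-11645877: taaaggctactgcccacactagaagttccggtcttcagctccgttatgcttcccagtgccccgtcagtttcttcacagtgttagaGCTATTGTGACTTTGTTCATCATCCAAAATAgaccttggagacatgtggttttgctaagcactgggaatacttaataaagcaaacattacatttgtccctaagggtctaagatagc
Il2ra intron 1, second Treg Ku70 region, chr2:11647794-11647994: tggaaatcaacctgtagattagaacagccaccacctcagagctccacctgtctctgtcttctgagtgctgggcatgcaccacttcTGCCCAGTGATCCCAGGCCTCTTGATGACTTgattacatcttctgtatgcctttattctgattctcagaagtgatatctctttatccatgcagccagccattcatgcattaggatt
Il2ra intron 3, Treg Ku70 region, chr2:11678449-11678649: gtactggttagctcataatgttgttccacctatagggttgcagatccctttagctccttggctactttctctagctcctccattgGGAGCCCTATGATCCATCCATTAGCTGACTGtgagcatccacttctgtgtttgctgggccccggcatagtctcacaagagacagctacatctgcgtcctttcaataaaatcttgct
Il2rb exon 10, Treg Ku70 region, chr15:78481521-78481721: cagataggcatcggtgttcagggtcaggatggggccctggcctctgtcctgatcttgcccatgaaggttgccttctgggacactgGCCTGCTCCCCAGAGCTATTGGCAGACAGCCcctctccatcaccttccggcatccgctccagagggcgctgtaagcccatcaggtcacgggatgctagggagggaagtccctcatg
Il2 downstream flank, Treg Ku70 region, chr3:37102720-37102920: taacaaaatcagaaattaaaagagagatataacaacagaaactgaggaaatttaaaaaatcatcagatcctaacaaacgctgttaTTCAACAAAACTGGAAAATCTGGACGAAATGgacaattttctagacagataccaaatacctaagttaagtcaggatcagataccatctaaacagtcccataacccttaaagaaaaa
Il2 upstream flank, Tconv Ku70 region, chr3:37131572-37131772: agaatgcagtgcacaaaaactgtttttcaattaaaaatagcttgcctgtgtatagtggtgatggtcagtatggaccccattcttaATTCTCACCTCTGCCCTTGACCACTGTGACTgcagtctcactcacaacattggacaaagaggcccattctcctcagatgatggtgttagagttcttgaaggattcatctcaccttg

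The 7 regions came from the Ku70 lists alone. In Tregs, 5 Ku70 regions were assigned to 3 of the 8 genes, namely 3 to Il2ra, 1 to Il2rb and 1 to Il2. In Tconv cells, 2 Ku70 regions were assigned to 2 genes, Il2 and Jak1. No FOXP3 region of WT or KO Tregs was assigned to any of the 8 genes. By the same rule, 23.4% of all protein-coding genes had a Treg Ku70 region, 10.7% a Tconv Ku70 region, 7.13% a WT FOXP3 region and 2.59% a KO FOXP3 region. Among the 8 genes the shares were 37.5% in Tregs and 25.0% in Tconv cells for Ku70, which are counts of 3 and 2 genes. Replicates had been pooled into 1 list per set, and therefore neither replicate spread nor a test was available for any comparison.

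**Figure D1:**
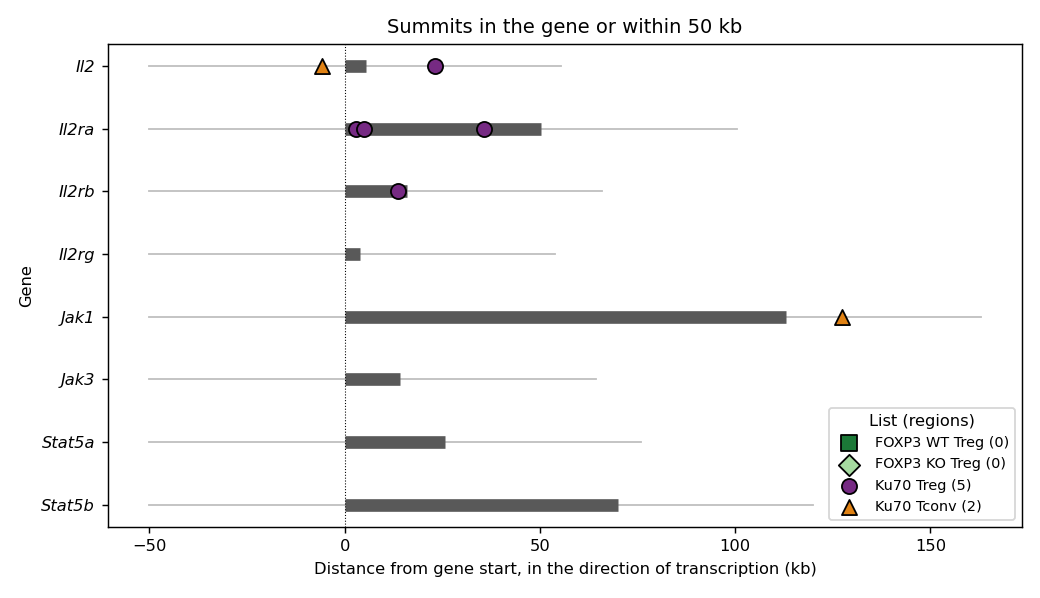
Positions of the 7 summits at the 8 genes, as distance from the gene start in kb in the direction of transcription. Dark bars are the genes, thin lines the 50 kb on either side, circles Treg Ku70 summits and triangles Tconv Ku70 summits. Of the 5 Treg Ku70 summits, 4 lie inside Il2ra or Il2rb, and both Tconv Ku70 summits lie outside the genes.

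Il2ra, on the plus strand of chromosome 2 at 11642807 to 11693193, had 3 Ku70 regions in Tregs. The first was at 11645550 to 11645853, with its summit in intron 1, 2.97 kb downstream of the gene start and just inside the 3 kb around a start that the study used to annotate regions. Its fold enrichment over the local background was 2.78 and its −log10 p, as the peak caller gave it before correction for the number of sites, was 2.64. The second was at 11647865 to 11648080, also in intron 1, 5.09 kb from the start and 2.12 kb from the first summit, with a fold enrichment of 1.85 and a −log10 p of 1.47. The third was at 11678463 to 11678620 in intron 3, 35.7 kb from the start, with a fold enrichment of 2.41 and a −log10 p of 2.03. The transcript used, Il2ra-201, has 8 exons, and none of the 3 summits fell in an exon.

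The 3 Il2ra regions differed in their sequence. The first had no repeat-masked base in its 201 bases, and its 31 central bases occurred once in the genome. The second was also single-copy, with 26.4% of its bases masked. The third was masked over its whole length (100%), and its 31 central bases occurred 5010 times in the genome. Whether whole reads at this site were unique was not tested. Its summit was also closer to the start of Il15ra, which encodes the private receptor chain for IL-15, at 26.7 kb. A count of 3 or more Treg Ku70 regions inside the gene was reached by 93 protein-coding genes (0.424%). These genes had a median length of 502 kb, against 50.4 kb for Il2ra, and 14 of them were no longer than Il2ra. Counted by its 2 single-copy summits, Il2ra held a pair of regions in intron 1.

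No region of the other 3 lists lay near Il2ra. The nearest Tconv Ku70 summit was 122 kb upstream (2.31-fold), the nearest WT FOXP3 summit 424 kb upstream (2.59-fold) and the nearest KO FOXP3 summit 1755 kb upstream (2.04-fold). The Treg and Tconv lists thus differed at this gene by 3 regions to 0. By the study's methods the cells were separated by CD25, the protein that Il2ra encodes. Region names in these lists read iTreg and Teff, a difference that was not resolved. The Treg Ku70 list was also longer, with 5295 regions against 1791 for Tconv. The part of the sort and of list length in this difference was not tested. With each list reduced to its 544 strongest regions by −log10 p, the length of the shortest list, the first Il2ra region remained. Such a cut only removes regions, so the Tconv count of 0 could not change.

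Il2rb, the signalling chain that IL-2 and IL-15 share, lies on the minus strand of chromosome 15 at 78479256 to 78495271. Its single region was a Treg Ku70 region at 78481548 to 78481687, with the summit 13.7 kb from the gene start in the coding part of exon 10, the last exon of Il2rb-201. All 201 bases around the summit were coding, 61.2% were G or C, and the 31 central bases were single-copy. The fold enrichment was 2.04 and the −log10 p 1.47, which are the medians of the Treg Ku70 list. The start of Tmprss6 was slightly nearer to this summit than that of Il2rb, at 13.0 kb. The nearest Tconv Ku70 summit lay 106 kb downstream of Il2rb, the nearest WT FOXP3 summit 788 kb and the nearest KO FOXP3 summit 1463 kb downstream.

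Il2rg, the common gamma chain of the receptors for IL-2, IL-4, IL-7, IL-9, IL-15 and IL-21, is the shortest of the 8 genes (3.88 kb) and lies on chromosome X at 101264378 to 101268255. No region was assigned to it in any list. The nearest was a Treg Ku70 summit 295 kb upstream (2.04-fold), and the nearest summits of the other lists were 4432 kb (Tconv Ku70), 5977 kb (KO FOXP3) and 6286 kb (WT FOXP3) downstream. Regions were sparse on chromosome X in every list. The Treg Ku70 list held 0.422 regions per Mb on X and 2.15 on autosomes, the Tconv Ku70 list 0.0550 and 0.706, the WT FOXP3 list 0.135 and 0.705 and the KO FOXP3 list 0.0428 and 0.214. The part of this difference in the distances at Il2rg was not tested.

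Il2, on the minus strand of chromosome 3 at 37120523 to 37125959, was the only one of the 8 genes with Ku70 regions from both cell types, and the regions lay on opposite sides of the gene. The Tconv Ku70 region was at 37131584 to 37131723, 5.71 kb upstream of the gene start in intergenic DNA, with a fold enrichment of 2.32 and a −log10 p of 2.03. Its 31 central bases were single-copy and 11.4% of its 201 bases were masked. The Treg Ku70 region was at 37102754 to 37103039, 17.7 kb beyond the end of Il2 in intron 10 of Adad1, with a fold enrichment of 2.39 and a −log10 p of 2.34. It was masked over 97.0% of its 201 bases, its GC content was 31.3%, and its 31 central bases occurred 4 times in the genome. The summits were 28.9 kb apart. Il2 had the nearest protein-coding start to both of them. The nearest WT FOXP3 summit was 266 kb downstream of Il2 and the nearest KO FOXP3 summit 1506 kb upstream, so that neither list held a region at the Il2 promoter or its flanks.

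Of the kinases, Jak1, which associates with CD122, is the longest of the 8 genes (113 kb) and lies on chromosome 4 at 101152367 to 101265282. Its single region was a Tconv Ku70 region at 101137766 to 101137929, 14.5 kb beyond the end of the gene and 127 kb from its start, in intron 10 of Raver2. The start of Raver2 was nearer to this summit, at 68.9 kb, and 64 of the 201 bases around the summit were coding. The fold enrichment was 2.46, the −log10 p 2.21 and the summit single-copy. The nearest Treg Ku70 summit lay 455 kb downstream and had 1551 copies, and the nearest WT FOXP3 summit lay 478 kb downstream.

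Jak3, which binds the common gamma chain and lies on chromosome 8 at 71676296 to 71690575, had no region in any list. Regions of 3 lists nevertheless lay downstream of it. The nearest WT FOXP3 summit was 109 kb away (2.60-fold, −log10 p 3.04), the nearest Tconv Ku70 summit 110 kb (1.92-fold) and the nearest Treg Ku70 summit 165 kb (2.06-fold). The WT FOXP3 distance at Jak3 was the smallest of that list at any of the 8 genes. The 31 central bases of these summits occurred 2, 2 and 4 times in the genome.

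Stat5a and Stat5b are neighbours on chromosome 11, at 100859351 to 100885169 and 100780731 to 100850724, with divergent starts and windows that overlap. Neither had a region in any list. The nearest Tconv Ku70 summit was 326 kb from Stat5a and 360 kb from Stat5b, and the nearest WT FOXP3 summit was 337 kb and 372 kb away. These were the same 2 summits for both genes. Treg Ku70 summits were farther, at 1703 kb from Stat5a and 1635 kb from Stat5b, and the nearest KO FOXP3 summit was 8874 kb from Stat5a. The locus that encodes the end point of the pathway was therefore the one most distant from Treg Ku70 regions among the 8 genes.

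**Figure D2:**
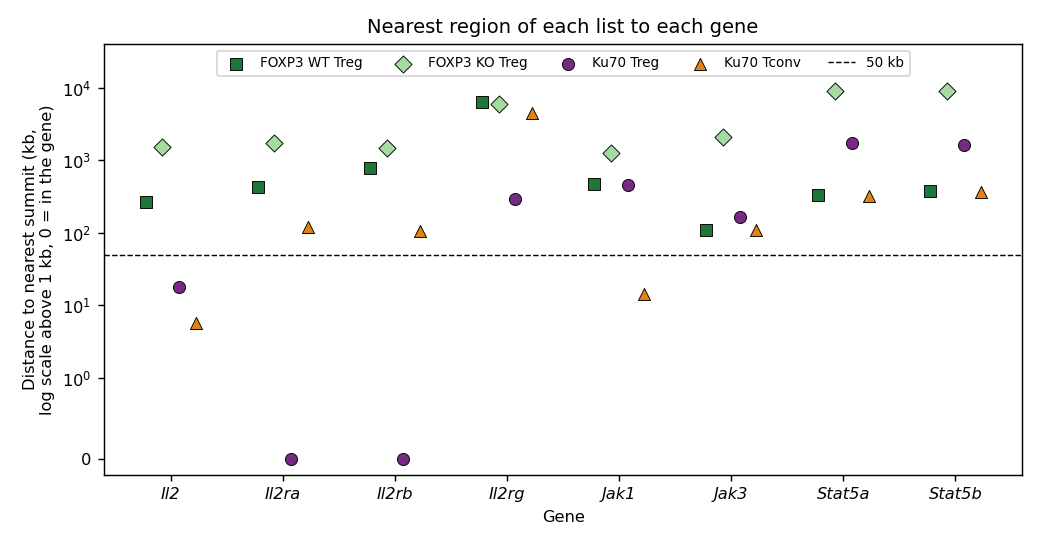
Distance in kb from each of the 8 genes to the nearest summit of each list, on an axis that is logarithmic above 1 kb, with 0 for a summit in the gene. Points below the dashed line at 50 kb are the assigned regions. WT FOXP3 summits lie 109 to 6286 kb away and KO FOXP3 summits 1242 to 8908 kb away, all above the line.

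The comparison of FOXP3 binding with and without Ku70 asks whether FOXP3 sites depend on Ku70. At the 8 genes it had no region to compare, since 0 genes had a region in the WT list, the KO list or both, against 0.583% of all protein-coding genes with both. The median distance to the nearest summit was 398 kb for WT FOXP3 and 1923 kb for KO FOXP3, and the lists held 1751 and 544 regions in all. The 8 windows together span 1.01 Mb, and the average density on autosomes was 0.705 WT and 0.214 KO FOXP3 regions per Mb. A window set of this size would thus hold fewer than 1 region of either list at the average density. Because a list gives only what passed its threshold, a missing region is not a measurement that binding was absent or lost.

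The comparison of FOXP3 with Ku70 in Tregs asks whether the 2 proteins occupy the same sites. None of the 8 genes had regions of both the WT FOXP3 and the Treg Ku70 list, as 2.79% of all protein-coding genes had. At the 5 Treg Ku70 summits, the nearest WT FOXP3 summit was 248 kb (Il2), 427 to 460 kb (Il2ra) and 791 kb (Il2rb) away.

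The comparison of Ku70 between Tregs and Tconv cells asks which Ku70 sites are particular to Tregs. One gene of 8, Il2, had regions of both lists, against 3.46% of all protein-coding genes, and it did so at different places. None of the 7 regions overlapped a region of another list by 1 bp, and none had a summit of another list within 10 kb. The same shares over all regions were not counted here, so this cannot be read as particular to the 8 genes. With the window narrowed to 3 kb, Il2ra and Il2rb (2 of 8) kept a Treg Ku70 region and no gene kept a Tconv Ku70 region. The corresponding shares of all protein-coding genes were 8.93% and 3.53%, and they were 2.64% for WT FOXP3 and 1.02% for KO FOXP3, for which the 8 genes also had none. In the 8 windows the density was 4.96 Treg and 1.99 Tconv Ku70 regions per Mb, against 2.15 and 0.706 on autosomes.

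**Figure D3:**
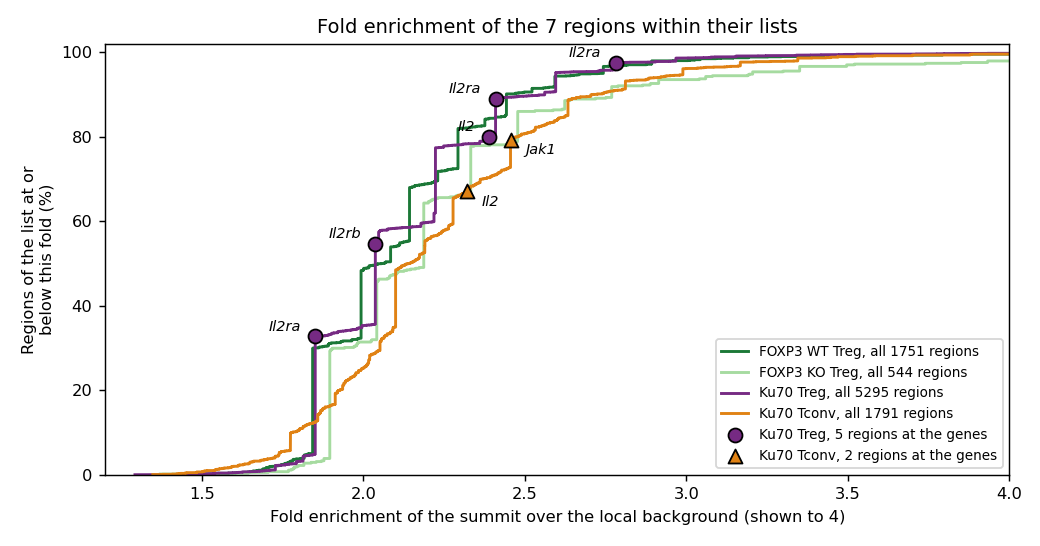
Fold enrichment of the 7 regions (symbols, named by gene) on the cumulative distribution of each list (lines; percent of regions at or below a fold, shown up to 4-fold). The first Il2ra region lies near the top of the Treg Ku70 list, and the second lies on its lowest large step at 1.85-fold.

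Fold enrichment of the 7 regions ran from 1.85 to 2.78, with a median of 2.39, and the whole Ku70 lists had medians of 2.04 in Tregs and 2.14 in Tconv cells. The first Il2ra region exceeded 95.9% of the Treg Ku70 regions, that in intron 3 80.2% and the Il2 region 79.2%. The Il2rb region exceeded 35.7% and the second Il2ra region 4.89%. In Tconv cells the Jak1 region exceeded 72.8% and the Il2 region 67.0% of the list. Values recurred in steps, and the fold and p of the second Il2ra region were shared exactly by 1475 Treg Ku70 regions (27.9%), those of the Il2rb region by 1008 (19.0%) and those of the first Il2ra region by 89 (1.68%). All 7 regions had a −log10 q of 0, which is a q-value of 1 after the peak caller's correction, as had 99.7% of the Treg and 99.3% of the Tconv Ku70 list. The same held for 99.7% of the WT and 98.5% of the KO FOXP3 list.

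Of the 7 summits, 5 were single-copy and 2 were not, and both multi-copy summits came from Tregs (Il2ra intron 3 and the Il2 flank). In the whole Treg Ku70 list 28.6% of summits were multi-copy, and in the Tconv list 32.9%. Motifs were sought on both strands of the 201 bases. The forkhead core TGTTTAC and the repeat TTTGTTTG, both recognised by FOXP3, were in none of the 7, and they were in 2.62% and 2.64% of all Treg Ku70 regions. They were similarly rare in the Tconv Ku70 list (1.76% and 2.11%) and in the WT FOXP3 list itself (2.8% and 1.52%). The STAT5 motif TTCNNNGAA was found once, as TTCTCAGAA in the second Il2ra region at chr2:11647940-11647948, 46 to 54 bases from the summit. It was present in 7.64% of all Treg Ku70 regions. The RUNX motif TGTGGT was found once, in the first Il2ra region 29 to 34 bases from the summit, and in 15.1% of all Treg Ku70 regions. The AP-1 motif TGANTCA was in none of the 7 and in 6.41% of Treg and 5.93% of Tconv Ku70 regions.

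The wider pathway was covered by 50 other genes in 5 groups, which were chosen with earlier results of these data known. Treg Ku70 regions lay within 50 kb of 20 of them (40.0%), which is above the 23.4% of all protein-coding genes, while Tconv Ku70 regions lay near 4 (8.0%, against 10.7%), WT FOXP3 regions near 4 (8.0%, against 7.13%) and KO FOXP3 regions near 3 (6.0%, against 2.59%). The Il2ra intron 3 region also lay within 50 kb of Il15ra, which is among the 20 and had another region as well. Within 3 kb, a window that includes the whole gene, the Treg Ku70 count was 11 of 50 (22.0%, against 8.93%). The inhibitors of the pathway had the highest Treg Ku70 share of the 5 groups, with 5 of 8 genes within 50 kb and 4 within 3 kb, and no Tconv Ku70 region. Among them Cish, a STAT5-induced inhibitor, had a region in intron 1 at 1.95 kb from its start (2.78-fold). Socs3, which encodes an inhibitor of JAK kinases, had one in the noncoding part of exon 2 (1.85-fold, above 4.89% of the list). Socs2 had one inside the gene but outside its principal transcript, 28.5 kb from the gene start (2.41-fold).

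In the other groups smaller shares had a Treg Ku70 region in the gene or within 3 kb of it. Genes with one included Il15 among 10 common gamma chain cytokines and receptors, Gab2 and Sos1 among 15 adaptors and kinases, and Ccnd3, Mcl1 and Prdm1 among 10 genes that STAT5 is known to regulate. These summits lay inside the genes, from 4.14 kb (Mcl1) to 99.4 kb (Gab2) from the gene start. Another Gab2 summit, at 14.9 kb, was masked over 100% of its 201 bases, and its 31 central bases occurred 628 times. Tconv Ku70 regions within 3 kb were found at Il4, in intron 2 and 1.32 kb from the start (2.21-fold), and inside Stat4, 106 kb from its start (2.63-fold). FOXP3 regions within 3 kb included 1 at Pik3cd in KO Tregs (2.04-fold) and those at Bcl2 in both. The strongest Bcl2 region of each list, in intron 1, had a fold enrichment of 3.04 in WT and 3.50 in KO Tregs. These were the highest FOXP3 values within 50 kb of the 50 genes. At Bcl2 the KO list had another region in intron 1 (2.19-fold) and the WT list one 41.5 kb outside the gene (2.29-fold). The −log10 q of each of these Bcl2 regions was 0. The highest Tconv Ku70 value was that at Stat4. Foxp3 itself and the deleted gene Xrcc6 had no region within 50 kb in any list, and region lists cannot be used to check the deletion or the identity of the cells.

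**Figure D4:**
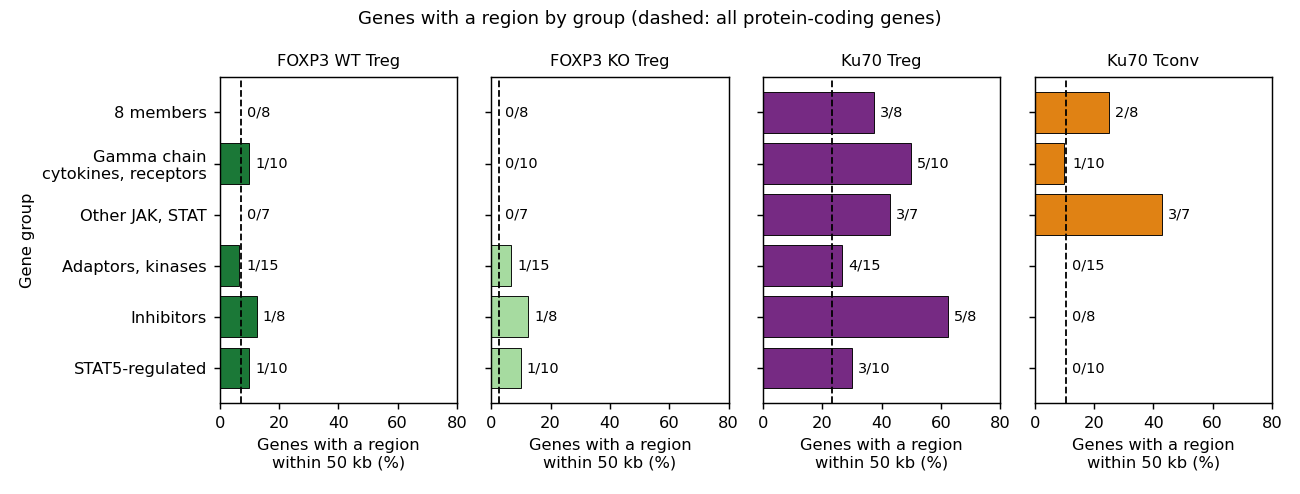
Percent of genes with a region in the gene or within 50 kb, for the 8 members and 5 groups of other pathway genes, in each of the 4 lists. Numbers give genes with a region over genes in the group, and dashed lines give the share of all protein-coding genes. Treg Ku70 bars reach 62.5% for the inhibitors, and the members have no FOXP3 bar.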

How the data were processed

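The 12 ChIP-Seq samples were grouped by their labels. According to the study's methods and the submitters' processing notes, the authors used Trim Galore for trimming, Bowtie2 for mapping (mm10) and Picard for duplicate removal. Regions were called by MACS2 from both replicates together, with the input as control, at p 0.05, without a model and with an extension of 140 bp. Versions are not given in the sources used here. The 4 deposited lists give fold enrichment (a ratio), −log10 p, −log10 q, a summit offset and a score that repeats −log10 p and was not used. Region names inside the deposited lists read iTreg for Treg, Teff for Tconv and CKO for KO. Groups followed the labels, and the difference was not resolved. Depth was not analysed here.

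Where a region had several summits, that with the highest −log10 p was used. Genes came from GENCODE M21 (GRCm38, the build of the lists), exons and introns from the principal transcript of a gene, and sequence and masking from the RefSeq copy of GRCm38.p6. Copies of 31 bases were counted on both strands of chromosomes and unplaced contigs. Coordinates of known enhancers were not used here. Assignment was tested on simulated data. No statistical test was applied, since each set has 1 list. The members, pathway lists and 3 of the 5 motifs were chosen with earlier results of these data known, and the AP-1 and RUNX motifs after the regions were seen. All 8 members are named, and of the other pathway genes those with a region within 3 kb and the highest fold of each list, apart from a few that are not reported here. Alternatives were other windows, stricter thresholds, overlap in place of summit, single-copy summits, lists of equal size and nearest starts. Python 3.11.15, numpy 2.4.6, pandas 2.3.3 and matplotlib 3.10.9 were used.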

Additional observations from a re-analysis of the deposited data

How the results depend on the processing

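The FOXP3 counts of 0 could not change under narrower windows, stricter thresholds or shorter lists, which only take subsets, nor at 100 kb, since the nearest FOXP3 summit was 109 kb away. Assignment by the nearest transcription start, which has no distance limit, also gave 0 FOXP3 genes. Treg Ku70 regions marked 3 genes, but 1 gene (Il2ra) with lists of equal size and 0 genes with a −log10 q of at least 2. They marked 2 genes, without Il2, within 3 kb, within 10 kb and with single-copy summits. With a −log10 p of at least 2 and by the nearest transcription start they marked 2 genes, without Il2rb. Tconv Ku70 regions marked 2 genes, but 0 genes within 3 kb, 1 gene (Il2) within 10 kb, 0 genes with a −log10 q of at least 2, 0 genes with lists of equal size and 1 gene (Il2) by the nearest transcription start. The single gene with Ku70 regions of both cell types, Il2, was lost (0 genes) within 3 kb, within 10 kb, with a −log10 q of at least 2, with single-copy summits and with lists of equal size. Of 81 values under alternatives to a count above 0, 44 were within 1.5 times that count and 37 moved. Of the 37, 25 were counts of regions or of other pathway genes. The Treg Ku70 count over the 50 pathway genes moved most, from 20 genes to 4 with lists of equal size and to 0 with a −log10 q of at least 2. No paired analysis was possible because the replicates of a set were pooled before regions were called, and for the same reason no replicate could be left out. Read depth was not analysed here, so the lists cannot show whether a gene without a region had weak binding or none.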
